A study of Oryza sativa with 12 samples.

Results

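Leaves of long-day plants at the pistil/stamen primordium forming stage (P-SLD) were compared with leaves of long-day plants at the earlier glume primordium differentiation stage (G-SLD). Both groups came from Nongken 58S, the photoperiod-sensitive male sterile rice line. Both were grown with 15 h light and 9 h dark after the same inductive short-day treatment, so stage was the labelled difference between them. By the methods the long days began at secondary branch differentiation, before both stages. Leaves of the later stage thus came from older plants, taken later and after more long days. Stage cannot be told apart here from plant age, harvest date or length of the long-day treatment. The comparison took 6 of the 12 arrays of the series, chosen by their titles, with 3 biological repeats in each group. The other 6 arrays held the same stages of the same line under 10 h light and 14 h dark (P-SSD and G-SSD, 3 repeats each). Sampled tissue was the second fully expanded leaf, taken in the dark part of the day, and not the inflorescence whose stage names the groups. RNA was hybridised to the Affymetrix rice genome array, on which a probe set is a group of short probes read together as 1 signal. The deposited table names 57381 probe sets and pairs none with a gene, and 0 probe sets were paired with a gene by the tables used here. The leaf and inflorescence markers could therefore not be read on the whole array to check the tissue.

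In rice the leaf measures day length and sends the florigen protein Hd3a to the shoot tip, where it starts the inflorescence. Ehd1, a response regulator, switches Hd3a on in short days and is held low in long days, and the leaf clock, which includes OsLUX and MYB factors of the CCA1 type, gates this response. In Nongken 58S the day length after the start of the inflorescence also affects pollen fertility. Long days give male sterility, and under short days the study reports only a partial return of fertility.

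Across the array no probe set could be called different between the later and the earlier stage under long days. None passed an adjusted p of 0.05 in limma (Benjamini-Hochberg, smallest adjusted p 1.00), and 715 of 25360 probe sets (2.82%) had an unadjusted p under 0.05, where 1268 would be the number from p-values without any effect. With the repeat number as a block, 1293 (within the 6 long-day arrays) or 1061 (over all 12 arrays) had such a p, and again none passed the adjusted test. The main fit shares its spread with the short-day arrays. Without a block, the count was 797 from the 6 long-day arrays alone and 984 without P-SSD repeat 1. Each of these fits gave 0 adjusted calls. The median log2 difference (P-SLD minus G-SLD) was 0.02 and the median absolute difference was 0.25 on the log2 scale. The median SD of the repeats was 0.40 in P-SLD and 0.39 in G-SLD on the same scale, and the median SE of a difference was 0.41. The unadjusted 95% interval of a difference reached a median of 0.89 to either side on the log2 scale. Even of the 189 probe sets with a difference of at least 2 on the log2 scale in either direction none passed the adjusted test, so absence of a difference was not shown.

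Arrays of different stages were about as alike as repeats of 1 stage. Over the probe sets kept, log2 signals of the P-SLD repeats correlated with each other at 0.861, 0.875 and 0.918, and those of the G-SLD repeats at 0.880, 0.895 and 0.932. A P-SLD array and the G-SLD array of the same repeat number correlated at 0.886, 0.925 and 0.945, which is within or above the range among repeats of 1 group. Pairs with other numbers had a median of 0.891. In both groups repeat 3 was the one that stood apart, at 0.875 and 0.861 with the other P-SLD repeats and at 0.895 and 0.880 with the other G-SLD repeats. They were computed over probe sets, which do not count as independent replicates.

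**Figure D1:**
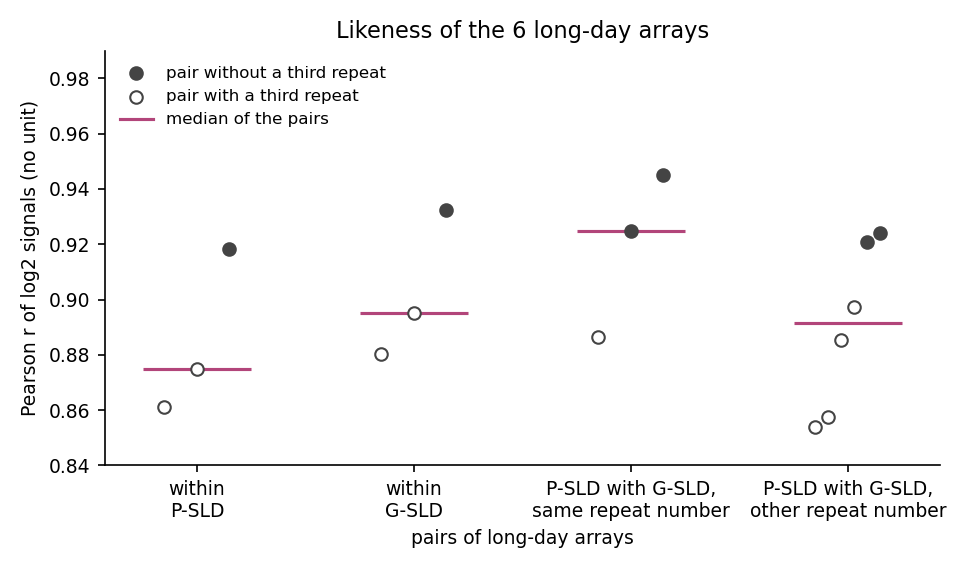
Pearson correlation of log2 signals (vertical axis, no unit) for each pair of the 6 long-day arrays, by kind of pair on the horizontal axis; open points are pairs that hold a repeat 3 and lines are medians. Pairs across stages with the same repeat number (median 0.925) lie as high as pairs of repeats within P-SLD (median 0.875) or G-SLD (median 0.895).

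With looser thresholds, an unadjusted p under 0.05 together with at least a 2-fold difference, 398 probe sets (1.57% of those tested) differed between the stages. Of these, 175 (0.69%) were higher in P-SLD and 223 (0.879%) were lower. None of the 398 passed the adjusted test, so they are described here and not called changed. In 1194 probe sets (4.71%) every P-SLD array lay above every G-SLD array, and in 835 (3.29%) every P-SLD array lay below. With 3 arrays against 3 the smallest two-sided p of an exact permutation test is 0.10, so the lack of overlap alone could not reach 0.05 for any probe set. All 3 conditions together held for 137 probe sets higher in P-SLD (0.54%) and 148 lower (0.584%).

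The looser calls came mainly from dim probe sets. The probe sets were split by mean signal into 4 classes of 6340. The dimmest class, with mean signals of 1.96 to 25.4, held 176 of the 398 (83 higher and 93 lower, 2.78% of the class). The next class up held 111 and the one after it 77. The brightest class, with mean signals of 236 to 6919, held 34 (0.536%), of which 7 were higher in P-SLD and 27 were lower. There the largest difference was 2.75-fold higher and 8.03-fold lower. The share of probe sets with a 2-fold difference, whatever their p, was 13.7% in the dimmest class and 1.85% in the brightest.

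**Figure D2:**
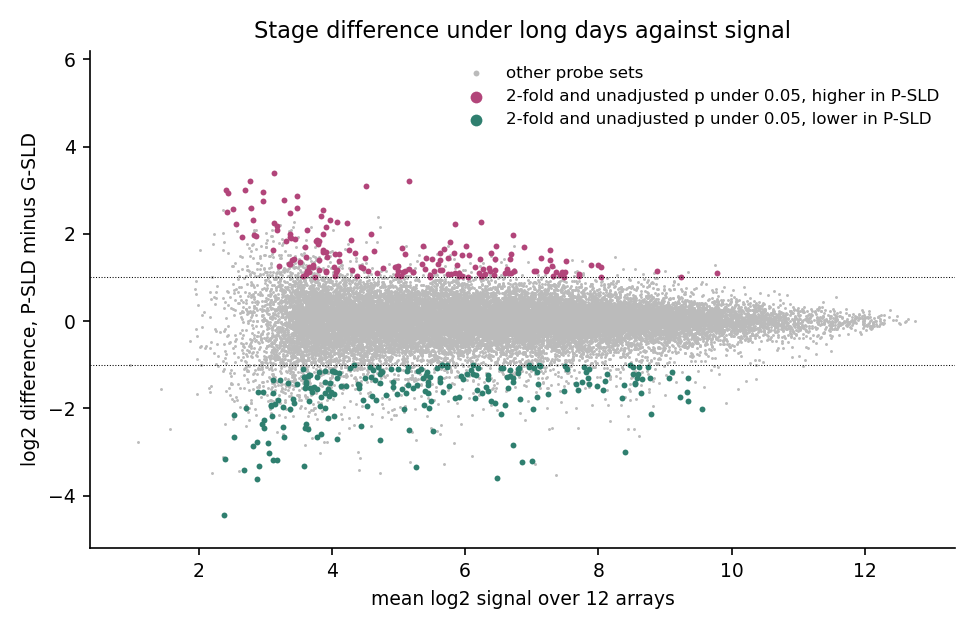
Log2 difference P-SLD minus G-SLD (vertical axis) against the mean log2 signal over 12 arrays (horizontal axis), 1 point for each of 25360 probe sets, with the 175 higher and 223 lower by the looser thresholds in colour and dotted lines at a 2-fold difference. Differences narrow to the right, where the signal is bright, and the coloured points lie mostly in the left part.

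How many probe sets lay on each side depended on single arrays and on the scaling. Higher probe sets made up 44.0% of the 398, and 31.5% (134 higher and 291 lower) when each array was centred on its median instead of quantile normalized. Without G-SLD repeat 1 there were 263 higher and 139 lower, which turned the balance to 65.4% higher. Without G-SLD repeat 2 there were 327 higher and 325 lower, without P-SLD repeat 1 189 higher and 393 lower, and without P-SLD repeat 2 253 higher and 459 lower. Of the 398, the number that remained among the calls was 183 without P-SLD repeat 3, 205 without G-SLD repeat 1, 210 without G-SLD repeat 3 and 234 without P-SLD repeat 1. With the repeat number as a block within the 6 long-day arrays, 230 were higher and 448 were lower, and 1293 had an unadjusted p under 0.05. No probe set passed the adjusted threshold in any of these fits.

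Individual probe sets are given here by their array names, which the files do not translate into genes. The rule for showing them took the smallest p among those with a 2-fold difference and no overlap, 2 in each direction. Os.55535.1.S1_at had the smallest p of the contrast, with normalized signals of 356, 289 and 522 on the P-SLD arrays, against 116, 167 and 95.1 on the G-SLD arrays. The P-SLD arrays were all above the G-SLD arrays, by 1.62 ± 0.29 on the log2 scale (SE, unadjusted p = 1.4e-04, adjusted p = 1.00 in limma). Under short days its signals were 114, 93.1 and 119 in P-SSD and 107, 114 and 126 in G-SSD, so of the 12 arrays the 3 of P-SLD were the high ones. Os.49190.1.S1_at read 151, 80.5 and 98.7 in P-SLD, against 30.3, 31.6 and 40.5 in G-SLD. This was 1.65 ± 0.33 higher on the log2 scale (SE, unadjusted p = 3.2e-04, adjusted p = 1.00 in limma), and the short-day arrays ran from 32.5 to 61.7, below every P-SLD array.

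Os.15894.1.A2_at was lower at the later stage, at 161, 200.045 and 171 in P-SLD, against 1065, 399 and 500 in G-SLD. The difference was -1.76 ± 0.36 on the log2 scale (SE, unadjusted p = 3.9e-04, adjusted p = 1.00 in limma), and G-SLD repeat 1 was more than 2-fold brighter than the other G-SLD repeats. Os.9330.4.S1_x_at read 407, 438 and 168 in P-SLD, against 1353, 904 and 1657 in G-SLD, a difference of -2.03 ± 0.43 on the log2 scale (SE, unadjusted p = 4.9e-04, adjusted p = 1.00 in limma). It was also lower under short days, at 584, 864 and 479 in P-SSD, against 1171, 893 and 2155 in G-SSD, without overlap (difference -1.07 on the log2 scale, unadjusted p = 0.027, adjusted p = 0.751 in limma). The ending _x_at marks probe sets with probes that can bind other transcripts too, so this signal may not belong to 1 gene. Each of the 4 kept its direction and an unadjusted p under 0.05 under all 25 alternatives, while the adjusted p stayed at 0.588 or above. The 4 were chosen on these same arrays, and several alternatives leave the estimate as it was. Their persistence is therefore no independent support.

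**Figure D3:**
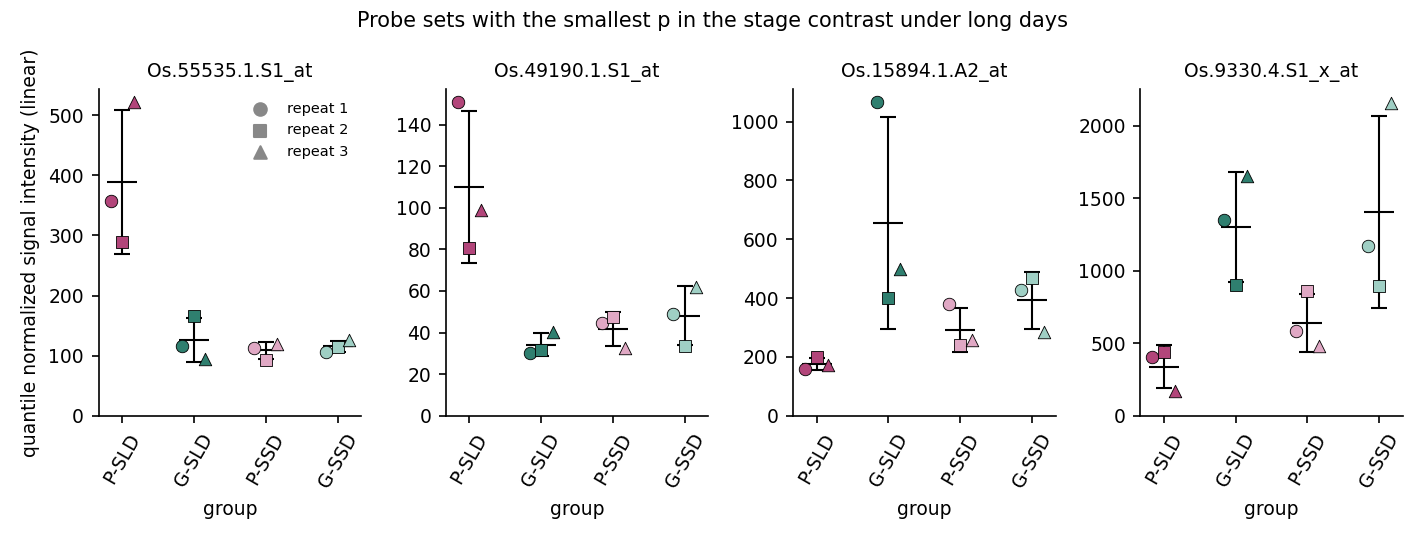
Quantile normalized linear signal (vertical axes, each from 0) of 4 probe sets on the 12 arrays by group; points are repeats, with the mean as a bar and the SD as whiskers (n = 3). P-SLD lies above G-SLD in the 2 panels on the left and below it in the 2 on the right, and on the left the short-day arrays lie near G-SLD.

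The same stage difference was then read on the short-day arrays, which share no array with the long-day contrast but enter the same fit. There, 0 probe sets passed the adjusted test (smallest adjusted p 0.164), 1584 (6.25%) had an unadjusted p under 0.05, and 853 (3.36%) passed the looser thresholds, of which 205 (0.808%) were higher in P-SSD and 648 (2.56%) were lower. With signals as deposited 46 were higher and 1695 lower, and with median centring 82 were higher and 1012 lower. Without P-SSD repeat 1 there were 170 higher and 480 lower. The counts were 445 higher and 1240 lower without P-SSD repeat 2, 381 higher and 1244 lower without P-SSD repeat 3 (with 9 probe sets past the adjusted threshold), and 343 higher without G-SSD repeat 3. The median SD of the repeats was 0.53 in P-SSD and 0.33 in G-SSD on the log2 scale. Of the 175 probe sets higher in P-SLD, 1 was also higher in P-SSD by the looser thresholds, which is 0.571% of the long-day list and 0.488% of the short-day list. Another 15 of the 175 were lower in P-SSD. Their median log2 difference was 1.37 under long days, which the choice fixed, and -0.04 under short days, and 48.6% were above 0 there, against 51.8% of all probe sets.

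The probe sets lower in P-SLD carried over in larger number, but lower calls were also the more common ones under short days. By the looser thresholds 2.56% of all probe sets were lower in P-SSD and 0.808% were higher. The number of shared calls thus depends in part on the length of the short-day lists. Of the probe sets higher in P-SLD, 0.571% were also higher in P-SSD, which is below the 0.808%. The share for the lower ones, given next, is above the 2.56%, and this excess was not tested. Of the 223, 17 were also lower in P-SSD, which is 7.62% of the long-day list and 2.62% of the short-day list, and 5 were higher there. Their median log2 difference was -1.48 under long days and -0.41 under short days, and 67.3% lay below 0 under short days, against 48.2% of all probe sets. The total of shared calls, 18, moved with single arrays. It was 12 without P-SLD repeat 3, 62 without P-SLD repeat 1, 30 without P-SLD repeat 2, 38 without G-SLD repeat 2, 41 without P-SSD repeat 2 and 32 without P-SSD repeat 3, and it was 61 with the repeat number as a block. Higher and lower together, 8% of all probe sets were free of overlap between the stages under long days, against 12.2% under short days, where P-SSD was higher in 1795 (7.08%) and lower in 1299 (5.12%). Of all probe sets, 235 had no overlap between the stages under both day lengths, 133 in the same direction and 102 in opposite directions. Unrelated contrasts with shares of 8% and 12.2% would also have probe sets in common. The 235 are therefore not read as stage differences shared between the day lengths.

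Whether the stage difference depended on day length was tested with the interaction. No probe set passed the adjusted threshold in limma (smallest adjusted p 0.127), and 906 (3.57%) had an unadjusted p under 0.05. This unadjusted count was 1391 without P-SSD repeat 2 and 1651 without P-SSD repeat 3, where 1 probe set passed the adjusted threshold. Among the 175 and 223 probe sets chosen by the long-day contrast, 82 and 52 had such a p, but the interaction holds the long-day arrays that chose them, so these counts are no evidence of a difference. For Os.55535.1.S1_at the interaction was 1.71 on the log2 scale (unadjusted p = 0.0014, adjusted p = 0.998 in limma). For Os.49190.1.S1_at it was 1.83 (unadjusted p = 0.0021, adjusted p = 0.998 in limma). None of the stage differences is thus shown to be particular to long days. The array of P-SSD repeat 1 stood apart in the short-day group (correlations of 0.797 and 0.862 with its other repeats). Its ratio of 3' to 5' signal was 10.5 for GAPDH and 25.1 for actin, where no other array exceeded 5.48 and 7.34, and its bioD spike-in signal was 143, where the other arrays read at least 1937. The part of this array in the short-day counts is given by the counts without it, and beyond that was not tested.

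**Figure D4:**
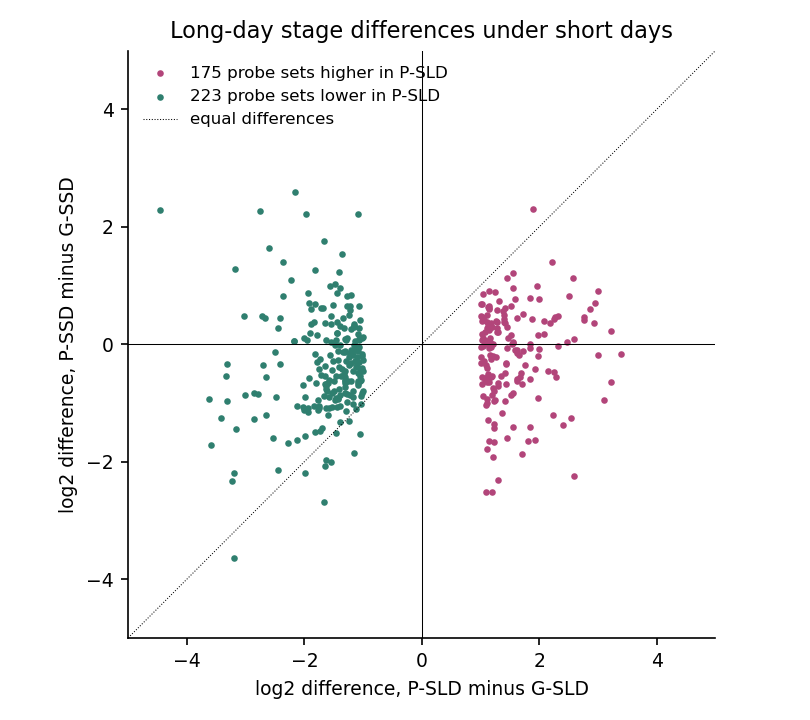
Log2 difference P-SLD minus G-SLD (horizontal axis) against P-SSD minus G-SSD (vertical axis) for the 398 probe sets chosen by the looser thresholds under long days, with the dotted line at equal differences. The 175 higher probe sets spread about 0 under short days (median -0.04), and the 223 lower ones lie more often below 0 (median -0.41).

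Transcripts that every cell uses, which the array reads as quality controls with the gene in the name of the probe set, did not separate the stages. In deposited signals, the 3' probe set of glyceraldehyde-3-phosphate dehydrogenase (GAPDH), a glycolytic enzyme, read 2124, 2773 and 2257 in P-SLD, against 3030, 2981 and 2749 in G-SLD. The 3' probe set of ubiquitin, the tag of protein breakdown, read 2455, 2886 and 2992 in P-SLD, against 3085, 2785 and 2762 in G-SLD. Both overlapped between the stages. The 3' probe set of actin, the cytoskeleton protein, read 379, 473 and 435 in P-SLD, against 304, 573 and 107 in G-SLD, with G-SLD repeat 3 the low one. Cyclophilin, a protein folding enzyme, was low on the same array, its 3' signal being 76.9, 80.6 and 32.3 in P-SLD, against 76.8, 123 and 15.9 in G-SLD.

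Ribosomal RNA carried through the labelling gave 582, 287 and 719 for 18S in P-SLD, against 584, 510 and 600 in G-SLD, so P-SLD repeat 2 had the lowest and P-SLD repeat 3 the highest of the 6 signals. The ratio of the 3' to the 5' GAPDH signal, which grows as RNA breaks down, was 4.55, 3.26 and 5.48 in P-SLD, against 4.17, 5.17 and 4.46 in G-SLD. On the whole array 8% of the probe sets were free of overlap between P-SLD and G-SLD, so few were to be met among the controls. Overlap is thus no trait particular to these transcripts. Of the 17 control probe sets described, 14 read rice transcripts and none of those was free of overlap. The exception was the bioD spike-in, a bacterial transcript that checks labelling and hybridisation, at 2199, 1964 and 1937 in P-SLD, against 2420, 2468 and 2213 in G-SLD. The part of these array differences in the probe sets described above was not tested.

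Named genes could be compared between the stages only where both of the deposited gene tables list them. Those tables hold the signals of genes chosen by their difference between short and long days, 105 loci at the glume stage and 201 at the pistil/stamen stage, and 30 loci stand in both. For 29 of them the long-day signals are given here. The choice was made on day length with these same arrays, so the loci are no sample of the transcriptome, and the P-SLD and G-SLD values come from tables that may have been normalized separately. They are therefore set side by side with no test. The column heads of the glume table bear the letter P, but its values were read here as those of the glume stage, under which the study's supplement gives identical values. With that limit, 24 of the 29 loci differed by less than 0.5 on the log2 scale. The median difference (P-SLD minus G-SLD) was -0.18, beside 0.02 over the probe sets of the array, with 24 loci below 0 and 5 above. Whether this lean goes with separate normalization of the tables was not tested, and the lower values below are to be read with it. In 3 loci the groups had no overlap, all 3 lower in P-SLD (10.3%, beside 8% of the probe sets on the whole array).

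The florigen pathway was near the bottom of the scale at both stages. Hd3a (LOC_Os06g06320) read 11.4, 11.4 and 8.68 in P-SLD, against 10.5, 10.4 and 12.5 in G-SLD. Its activator Ehd1 (LOC_Os10g32600) read 8.72, 8.11 and 13.0 in P-SLD, against 8.49, 10.4 and 12.3 in G-SLD. Both genes overlapped between the stages, and both were dim on all 6 long-day arrays, whereas on the short-day arrays Hd3a was at 275 to 637 in P-SSD and 743 to 865 in G-SSD and Ehd1 was at 118 to 296 in P-SSD and 116 to 367 in G-SSD. Both genes were listed for their difference between these short-day and long-day groups, so this contrast is no independent check of the labels. OsMADS1 (LOC_Os03g11614), a MADS-box factor that shapes the lemma and palea and specifies the floret, read 45.9, 75.3 and 115 in P-SLD, against 153, 133 and 49.4 in G-SLD. Repeat 3 went against the other repeats in both groups, as the highest in P-SLD and the lowest in G-SLD. On the short-day arrays OsMADS1 was brighter, at 735 to 1030 in P-SSD and 914 to 1057 in G-SSD. It too was listed for its difference between the day lengths.

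Of the clock genes, OsLUX (LOC_Os01g74020), listed as ARR1 protein-like and a member of the evening complex, was bright and lower at the later stage. It read 987, 1185 and 1227 in P-SLD, against 1452, 1435 and 1690 in G-SLD, a mean of 1133 ± 128 in P-SLD and 1525 ± 143 in G-SLD (SD, n = 3 each) with no overlap. The step was small, at -0.43 on the log2 scale. Under short days OsLUX was lower at the later stage too, by -0.91 on the log2 scale and without overlap. It read 241, 330 and 406 in P-SSD, against 485, 442 and 996 in G-SSD. The MYB factor listed as CCA1 (LOC_Os06g51260) read 67.5, 427 and 80.1 in P-SLD, against 149, 475 and 162 in G-SLD. Repeat 2 was the high one at both stages, so most of its spread went with the repeat number. With each number taken alone, P-SLD was the lower of the pair in all 3 pairs. The pre-mRNA splicing factor SF2 (LOC_Os01g21420) had the same shape, with 99.9, 238 and 126 in P-SLD, against 235, 585 and 188 in G-SLD, where repeat 2 was again the highest in each group and the groups overlapped. Under short days SF2 was lower without overlap, at 250, 369 and 312 in P-SSD, against 627, 692 and 759 in G-SSD. The MYB factor overlapped between the stages there.

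The widest stage differences lay in a transporter and a receptor kinase. Both were listed with opposite day-length differences at the earlier stage (higher in long days) and the later stage (lower in long days). A locus listed for such a reversal must differ between the stages under long days, short days or both. Part of this outcome was thus fixed by the choice. Oligopeptide transporter 4 (LOC_Os02g46850), of a family that carries small peptides and metal chelates across membranes, read 85.4, 118 and 103 in P-SLD, against 779, 864 and 812 in G-SLD. All P-SLD arrays were low and all G-SLD arrays high, with a mean of 102 ± 16.2 in P-SLD and 818 ± 42.7 in G-SLD (SD, n = 3 each), 8.02-fold apart, and the lowest G-SLD signal was 6.62 times the highest P-SLD signal. Under short days P-SSD was the higher of each same-numbered pair, with overlap between the groups, at 746, 740 and 182 in P-SSD, against 164, 189 and 154 in G-SSD. Receptor-like protein kinase 5 (LOC_Os02g13430), of a family that senses signals outside the cell, read 59.9, 66.9 and 313 in P-SLD, against 312, 383 and 395 in G-SLD. P-SLD repeat 3 was at the level of G-SLD, and the other P-SLD repeats were well below it. Under short days it was higher in P-SSD, at 397, 339 and 392, against 80.3, 30.2 and 109 in G-SSD.

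A stage difference as free of overlap as the transporter's was not found in the full array table. In the deposited signals of 57194 probe sets, 5 had every G-SLD signal over 60 and more than 2 times every P-SLD signal, and 0 had such a difference at 4 times or at 6 times. In the other direction 3 probe sets reached 2 times and 0 reached 4 times. In the normalized values a difference of group means of 8.03-fold did occur in the brightest class. Whether the array table and the gene tables were processed alike is not known here, and the reason for the contrast was not tested.

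A glutaredoxin, OsGrx_C7.2 (LOC_Os01g26912), one of the small enzymes that reduce disulphides with glutathione, was also lower. It read 126, 182 and 202 in P-SLD, against 489, 373 and 204 in G-SLD. The groups did not overlap, but repeat 3 was nearly equal in both. The heat shock factors, which switch on chaperone genes, were close between the stages. RHSF7 (LOC_Os03g06630) read 177, 144 and 91.2 in P-SLD, against 120, 146 and 116 in G-SLD, and RHSF11 (LOC_Os01g53220) read 254, 274 and 372 in P-SLD, against 244, 449 and 220 in G-SLD. Of the chaperone partners with a DnaJ domain, LOC_Os04g57880 averaged 245 ± 71.9 in P-SLD and 307 ± 73.8 in G-SLD, and LOC_Os06g28050 averaged 193 ± 72.7 in P-SLD and 210 ± 81.6 in G-SLD (SD, n = 3 each).

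Among the other loci the groups overlapped. ThiC (LOC_Os03g47610), which makes the pyrimidine part of thiamine, read 270, 249 and 343 in P-SLD, against 237, 188 and 424 in G-SLD. The phosphoglucomutase family gene (LOC_Os06g28194), of sugar phosphate turnover, had the largest positive difference of the 29, at 0.29 on the log2 scale, with 387, 552 and 464 in P-SLD, against 345, 484 and 322 in G-SLD, and it overlapped. The phosphoethanolamine N-methyltransferase gene (LOC_Os01g50030), of choline synthesis, averaged 442 ± 118 in P-SLD and 472 ± 87.1 in G-SLD. The cobalt-type transport permease (LOC_Os10g38910) averaged 1329 ± 239.7 in P-SLD and 1292 ± 190.4 in G-SLD (SD, n = 3 each). The other 12 loci, among them the sigma factor rpoD, an EF hand protein, a homeodomain-leucine zipper factor, a tonoplast dicarboxylate transporter, thioredoxin-like 5 and loci without a known function, overlapped between the groups, with log2 differences between -0.44 and -0.02.

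**Figure D5:**
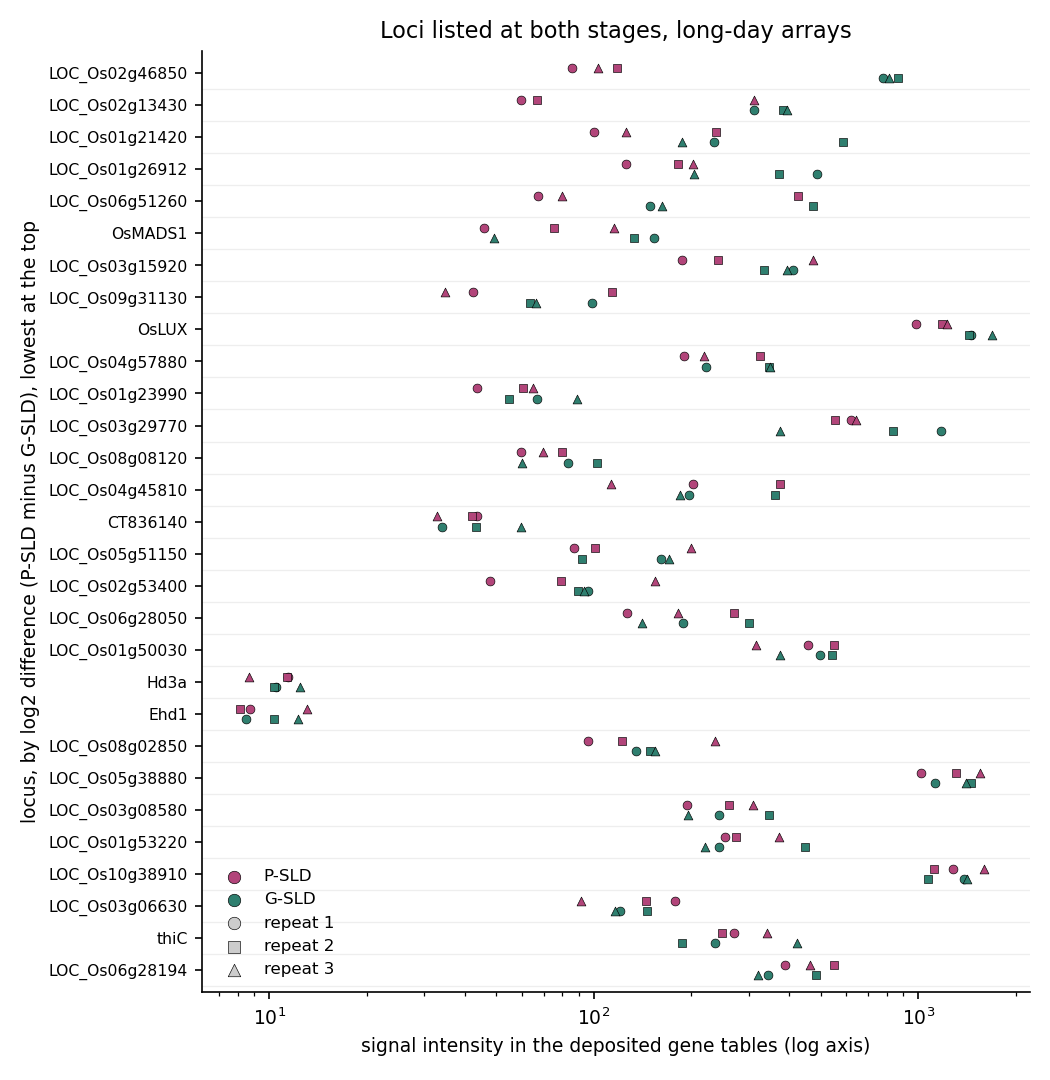
Signal in the deposited gene tables (horizontal log axis) on the 6 long-day arrays for the 29 loci, with P-SLD above G-SLD in each row and the repeats by marker shape; rows run by the log2 difference P-SLD minus G-SLD, lowest at the top. LOC_Os02g46850 stands apart at the top (85.4 to 118 in P-SLD, 779 to 864 in G-SLD), most rows overlap, and Hd3a and Ehd1 lie near 10 in both groups.

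Of the pathway lists drawn up for this work, 6 of 109 genes could be read at both stages, namely 2 of 16 clock genes, 2 of 20 flowering and photoreceptor genes, 1 of 11 inflorescence and organ markers and 1 of 16 genes of starch, sucrose and thiamine. No member of the lists for leaf photosynthesis, leaf senescence, nitrogen assimilation, stress, defence or iron and phosphate stood in both tables. In 4 of these 6 the stages overlapped with a difference under 0.5 on the log2 scale, OsLUX was lower in P-SLD without overlap, and the CCA1-type MYB overlapped with a difference of -0.77.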

How the data were processed

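The authors hybridised leaf RNA to 12 arrays and deposited 1 table of linear signal intensity per probe set and array, for which the submitters' notes name GCOS 1.4. The sources used here do not say whether a dChip step preceded these values. A gene table for each stage was deposited too, with 6 signal intensity values per locus. The methods describe dChip's invariant-set normalization of the arrays, with a background from 5% of the perfect-match signals. They do not say which of the deposited values had gone through it. The gene tables also hold columns of fold and p for day length, which were not used.

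Here, log2 intensities were quantile normalized over all 12 arrays, after 187 control and reporter probe sets had been left out. A probe set was kept if its signal reached the 60th percentile of the array on at least 3 arrays, which left 25360. The percentile filter used all 4 groups, so a probe set bright at 1 stage only was kept. Stage contrasts were read from 1 fit with a coefficient per group with limma 3.58.1 (R 4.3.3; lmFit, then eBayes with trend). Tests were two-sided, with Benjamini-Hochberg adjustment over all probe sets kept. The procedure was tested on simulated data. The p-values set each group difference against the spread between repeats, estimated over all 4 groups together and moderated across probe sets. That spread includes the P-SSD repeats, with a median SD of 0.53 on the log2 scale. The study calls the repeats biological. The number of arrays limits the precision. Array medians ran from 6.92 to 9.18.

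Samples were grouped by their titles. The repeat numbers were checked for pairing by the deviations of P-SLD and G-SLD arrays of equal number from their group means, which correlated at 0.14, 0.30 and 0.33; the bound was 0.1, so blocked counts are given beside the unblocked ones. No source names a shared batch or day, so the pairing rests on the data alone.

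The arrays compared, the gene lists and the tests were chosen with earlier results of these data known. The probe sets shown are the 2 higher and 2 lower with the smallest p among those with a 2-fold difference, an unadjusted p under 0.05 and no overlap; all loci in both gene tables were described, apart from 1 whose result is not reported here. Normalization, filter, signal floor, samples in the fit, array weights, the repeat block and the methods' t-test were tried as alternatives.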

Additional observations from a re-analysis of the deposited data

How the results depend on the processing

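In the comparison of P-SLD with G-SLD, no probe set passed the adjusted threshold in limma under any alternative, and the methods' t-test also gave 0 after Benjamini-Hochberg adjustment. The counts by the looser thresholds moved with several choices. Without a filter there were 948 higher and 943 lower, with 2180 at an unadjusted p under 0.05. With a floor of 20 there were 82 higher and 94 lower. The methods' t-test gave 114 higher and 98 lower. Array weights gave 1159 at an unadjusted p under 0.05. With the replicate block within the 6 long-day arrays, 448 were lower and 1293 had an unadjusted p under 0.05, and with the replicate block over all 12 arrays 401 were lower. Leaving out 1 array at a time gave 140 to 327 higher, 139 to 459 lower and 528 to 1058 at an unadjusted p under 0.05, with 0 adjusted calls throughout.

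In the comparison of P-SSD with G-SSD, higher and lower counts were 46 and 1695 with signals as deposited, 82 and 1012 after median centring, 1225 and 1621 without a filter, 94 and 333 with the floor, and 493 and 1163 without all 4 arrays of repeat 3. Leaving out 1 array at a time gave 170 to 445 higher, 480 to 1244 lower and 0 to 9 adjusted calls, the 9 without P-SSD repeat 3. Array weights, leaving out both long-day arrays of repeat 3, and leaving out all 4 arrays of repeat 3 gave 1 adjusted call each.

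Interaction counts at an unadjusted p under 0.05 were 1389 as deposited, 2583 without a filter and 717 to 1651 with 1 array left out. An adjusted interaction call was made for 1 probe set with array weights and for 1 without both long-day arrays of repeat 3, and for 0 to 1 with 1 array left out. Calls shared between the day lengths numbered 51 as deposited, 47 centred, 101 without a filter, 7 with the floor, 61 with the replicate block, 62 without all 4 arrays of repeat 3 and 12 to 62 with 1 array left out. No probe set passed the adjusted threshold with the block in any of the comparisons. The cause of these moves was not tested. Leaving out repeat 3 from both long-day groups or from all 4 groups was chosen after seeing the data, as were, for the long-day contrast, the block over 12 arrays and leaving out single short-day arrays. The alternatives planned for the pathway lists were not run, since no table used here pairs probe sets with genes.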
